A study of Rattus norvegicus with 79 samples.

Results

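This account compares aged rats that were impaired in learning a hidden platform in the water maze with aged rats that had the same training and were labelled unimpaired. It rests on 23 of the 79 arrays of the series, 10 from impaired and 13 from unimpaired rats, chosen by the learning letter in the sample titles. Both groups were male Fisher-344 rats (spelled as in the labels) of 24 months, housed in pairs, with no transgene and no drug named in the labels apart from the pentobarbital given before death, 1 day after the last trial. RNA came from a micro punch of the CA1 cell layer, so it holds every cell type of that layer, and a pair of amplification rounds came before labelling, with 1 array per animal. The other aged groups were 5 cage controls, 8 yoked swimmers without a platform, 8 rats trained to a visible platform and 16 hidden platform rats whose title carries an unexplained B; these B rats enter no test. The labels state neither behavioural scores nor the criterion for calling a rat impaired.

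CA1 pyramidal cells are the main output of the hippocampal circuit, and rats need this circuit to learn the place of a hidden platform from cues around the pool. Spatial learning depends on glutamate receptors of the AMPA and NMDA classes, on calcium-activated kinases and phosphatases, and on activity-induced genes such as Arc, Fos and Bdnf, whose RNA rises within minutes to hours of activity. Aged rats of one strain differ widely in this kind of learning, which is why impaired and unimpaired animals of the same age can be set side by side.

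Most of the 23 arrays resembled each other closely, and 3 did not. Likeness to the other aged arrays was taken as the median of an array's Spearman correlations over the 8740 probe sets that are not controls. It was 0.223 for impaired rat 83, 0.446 for impaired rat 8 and 0.784 for unimpaired rat 81, and these 3 are called low-correlation arrays here because they lay under 0.85. The next lowest was impaired rat 87 at 0.855, and the remaining arrays reached up to 0.940. The low-correlation arrays had a narrow signal range: on the array of rat 83 the 5th and 95th percentiles were 133 and 1366, while rat 52 had 6.2 and 3364. Their 5th percentiles lay above and their 95th percentiles below those of every other array of the 23. Low-correlation arrays were also found among 4 of 8 visible platform, 1 of 8 yoked and 1 of 5 cage control rats. Results below are given with all arrays and again without the low-correlation arrays (8 impaired and 12 unimpaired rats).

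**Figure D1:**
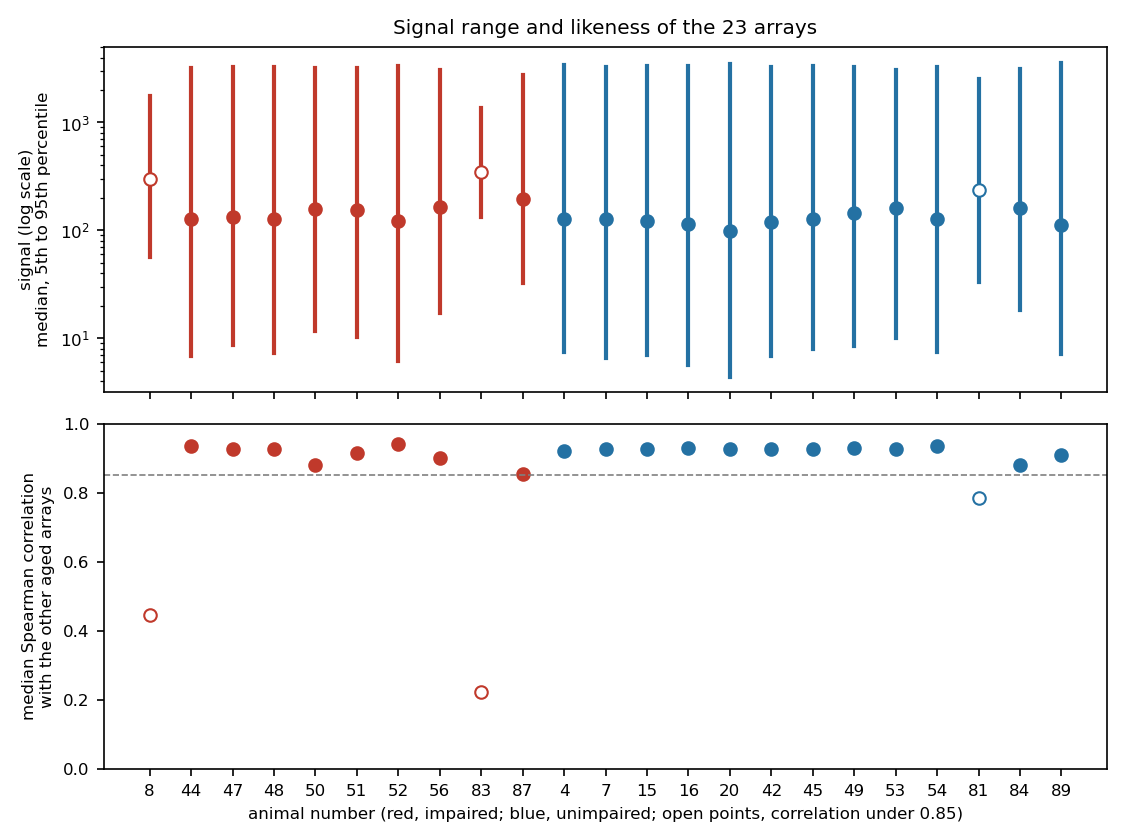
Upper panel, signal of each of the 23 arrays on a log scale (point, median; line, 5th to 95th percentile); lower panel, median Spearman correlation of that array with all other aged ones, with the limit of 0.85 dashed. Red is impaired, blue is unimpaired, and open points are the low-correlation arrays of rats 8, 83 and 81, whose signal range is compressed.

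In none of 4 array measures did the difference between the groups pass a permutation test. The median signal averaged 183 in impaired and 137 in unimpaired rats, a difference of 46.2 (permutation test with 100000 resamples, two-sided, p = 0.0819, adjusted over the 4 measures 0.316). That difference was 19.1 without the low-correlation arrays (permutation p = 0.0717, adjusted 0.287). The 3' to 5' ratio of control transcripts, in log2, which moves with RNA integrity and amplification, differed by -0.15 (permutation p = 0.706), and rat 83 was far below the others at -0.16. The correlation itself differed by -0.12 (permutation p = 0.158) and the log2 spike-in signal by 0.48 (permutation p = 0.478).

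No gene separated impaired from unimpaired rats at the threshold used. The fit was made with limma on log2(signal + 15), and a difference is the impaired minus the unimpaired mean on that scale, given ± its standard error. With all arrays, 0 of 5244 probe sets and 0 of 3233 genes (0%) had a Benjamini-Hochberg adjusted p under 0.05, and the smallest adjusted p was 0.312. Limma again called, without the low-correlation arrays, 0 of 3233 genes (0%), with a smallest adjusted p of 0.166 among genes and 0.113 among all probe sets. No gene had groups that did not overlap, with or without those arrays (0% in either direction). Because none passed, no gene below is said to have risen or fallen, and values are descriptions of where the animals lay.

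Unadjusted p-values were nonetheless small more often than a uniform spread would give. With all arrays 677 probe sets had an unadjusted p under 0.05, 396 higher and 281 lower in impaired rats, where a uniform spread of p would give 262.2 of 5244. Genes are not independent of each other, so these counts are descriptions. Counted as genes these were 421 of 3233 (13%), 215 higher (6.65%) and 206 lower (6.37%). With the low-correlation arrays left out the counts were 440 genes (13.6%), 302 higher (9.34%) and 138 lower (4.27%). The 2 sets shared 229 genes, all in the same direction, which is 54.4% of the first set and 52% of the second. Leaving out rat 83 alone lowered the 677 probe sets to 358, and leaving out rat 8 alone lowered them to 399.

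The size of the differences shrank when the low-correlation arrays were left out. The number of genes with a difference over 1 on the log2 scale in either direction went from 58 to 8, while the median standard error of a gene went from 0.29 to 0.20. The sign turned for 684 genes (21.2%). The spread among impaired rats was larger than among unimpaired rats for 83.4% of genes with all arrays (median SD 0.79 and 0.48), and for 56.8% without the low-correlation arrays (0.44 and 0.41).

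**Figure D2:**
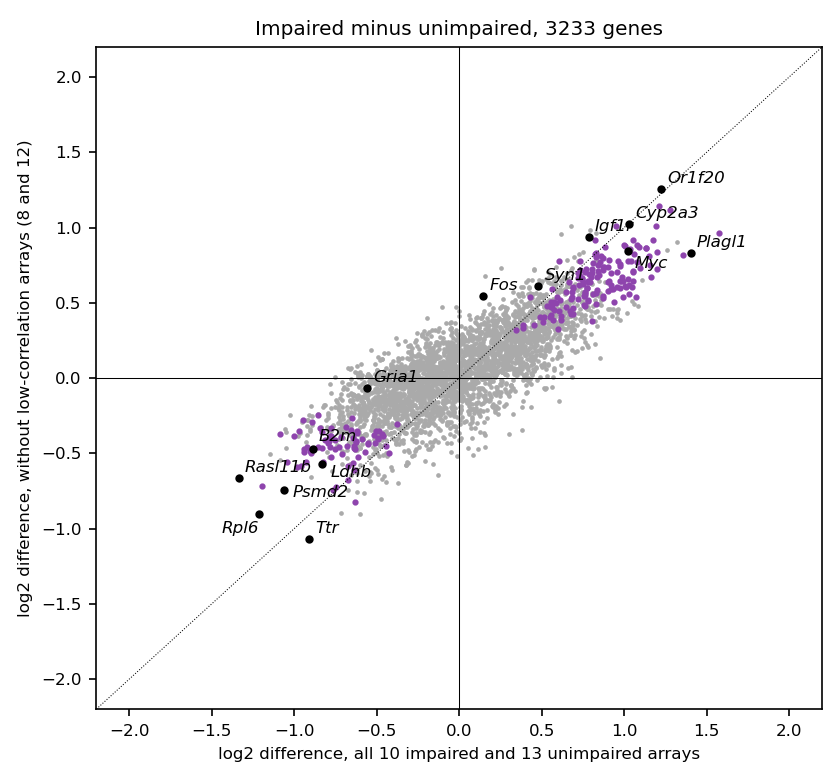
Each point is 1 of 3233 genes, with its impaired minus unimpaired log2 difference over all 10 and 13 arrays on the x axis and over the 8 and 12 arrays left without the low-correlation arrays on the y axis; the dotted line marks equal values. Purple points have an unadjusted p under 0.05 in both fits (229 genes), black points are labelled genes, and the median size of a difference is 0.32 on the x axis and 0.20 on the y axis.

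Strong and weak genes leaned opposite ways. Among the 25% of genes with the weakest mean signal the median difference was 0.40, and among the 25% with the strongest it was -0.39. With the low-correlation arrays left out, these medians were 0.21 and -0.05. With all arrays 129 of the 809 weakest genes had an unadjusted p under 0.05 in the higher direction and 2 in the lower. Among the 808 strongest these counts were 1 and 140. Without the low-correlation arrays they were 128 and 17 among the weakest, and 21 and 62 among the strongest. The direction of the whole set also depended on scaling: quantile normalization moved the median of all genes from 0.00 to -0.18 and median centring moved it to -0.33. Of the probe sets at an unadjusted p under 0.05, 396 of 677 lay higher with the deposited scaling, 183 of 603 after quantile normalization and 125 of 853 after median centring. Lists of weak genes, such as receptors, and lists of strong genes, such as ribosomal proteins, therefore have to be read beside these values, and the part of this lean in any list was not tested. For some lists the median relative to that of all genes is therefore given as well. Median centring shifts every gene of an array alike, so it cannot change this relative median, whereas quantile normalization can. Signal of different probe sets is not a common measure of RNA amount, and weak or strong refers to signal alone.

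The animal numbers offered one further view. Numbers 41 to 56 held 7 impaired and 5 unimpaired rats and no low-correlation array; the labels tie these numbers to animals but to no day or batch. Within this range 225 probe sets had an unadjusted p under 0.05, where a uniform spread would give 262.2, and limma called 0 after adjustment. Of all 3233 genes 1669 lay higher and 1564 lower there, 61 and 68 of them with an unadjusted p under 0.05. The median difference of the weakest 25% of genes there was 0.07 and of the strongest -0.03. A fit of the 23 arrays with the number range as a covariate gave 1370 probe sets at an unadjusted p under 0.05 and again 0 after adjustment. The groups were spread unevenly over the numbers: below 41 lay impaired rat 8 and unimpaired rats 4, 7, 15, 16 and 20. Without the low-correlation arrays 7 of 8 impaired and 5 of 12 unimpaired rats had numbers from 41 to 56. No covariate for number range was used there, so in that fit learning group and number range cannot be fully told apart.

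The 12 genes of smallest p that lay higher in impaired rats were weakly expressed, with mean signals from 119 to 334 against a median of 434 over all genes. Plagl1, a zinc finger transcription factor expressed from an imprinted locus, led this group. Its signal ran from 74.8 to 1180.1 with a median of 181 in impaired rats and from 27.1 to 165 with a median of 79.3 in unimpaired rats. All 10 impaired rats lay above the unimpaired mean and 5 lay above every unimpaired rat, with rats 8 and 83 far above the rest. Relative to the unimpaired mean its difference was 1.40 ± 0.38 with all arrays and 0.83 ± 0.27 without the low-correlation arrays.

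Cyp2a3, a cytochrome P450, kept its difference without the low-correlation arrays. Its signal ran from 126 to 646 with a median of 281 in impaired and from 38.1 to 275 with a median of 163 in unimpaired rats, and 6 of 10 impaired rats lay above all 13 unimpaired rats. The difference was 1.03 ± 0.30 with all arrays and 1.02 ± 0.25 without the low-correlation arrays, where its unadjusted p of 0.000251 was the smallest of all genes and its adjusted p in limma was 0.166. Members of the Cyp2a family are close in sequence, and their probe sets can share signal.

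Pola2, the accessory subunit of DNA polymerase alpha, ran from 48.4 to 571 with a median of 164 in impaired and from 36.8 to 163 with a median of 75.6 in unimpaired rats, a difference of 1.13 ± 0.32 (0.86 ± 0.23 without the low-correlation arrays). Rgn encodes regucalcin, a calcium-binding protein, and differed by 1.20 ± 0.33 and 0.72 ± 0.25 in the 2 fits. Kynu encodes kynureninase of the tryptophan breakdown pathway, and its difference was 1.10 ± 0.33 and 0.73 ± 0.23. Aif1l, a relative of the microglial protein Iba1, had 8 of 10 impaired rats above every unimpaired rat, with signals from 76.4 to 752 with a median of 183 in impaired and from 25.5 to 136 with a median of 83.8 in unimpaired rats. Its difference was 1.16 ± 0.35 with all arrays and 0.75 ± 0.28 without the low-correlation arrays.

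Sds, a serine dehydratase, differed by 0.96 ± 0.30 (0.78 ± 0.30 without the low-correlation arrays), the metalloprotease relative Adam7 by 1.06 ± 0.31 (0.82 ± 0.23) and the zinc finger gene Zfp94 by 1.17 ± 0.34 (0.67 ± 0.20). Adra2c, the alpha 2C adrenergic receptor, differed by 0.80 ± 0.25 and 0.38 ± 0.18, and among animals 41 to 56 by 0.04. A pair of olfactory receptor genes, Or1f20 and Or1n1b, completed the 12. Or1f20 had signals from 226 to 668 with a median of 344 in impaired and from 54.4 to 494 with a median of 128 in unimpaired rats, a difference of 1.23 ± 0.35 and of 1.26 ± 0.39 without the low-correlation arrays. Another probe set assigned to Or1f20 differed by -0.08; olfactory receptors form a large family of similar sequences. All 12 genes kept an unadjusted p under 0.05 without the low-correlation arrays. Among animals 41 to 56, 7 had one, beside 61 of all 3233 genes in the higher direction.

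**Figure D3:**
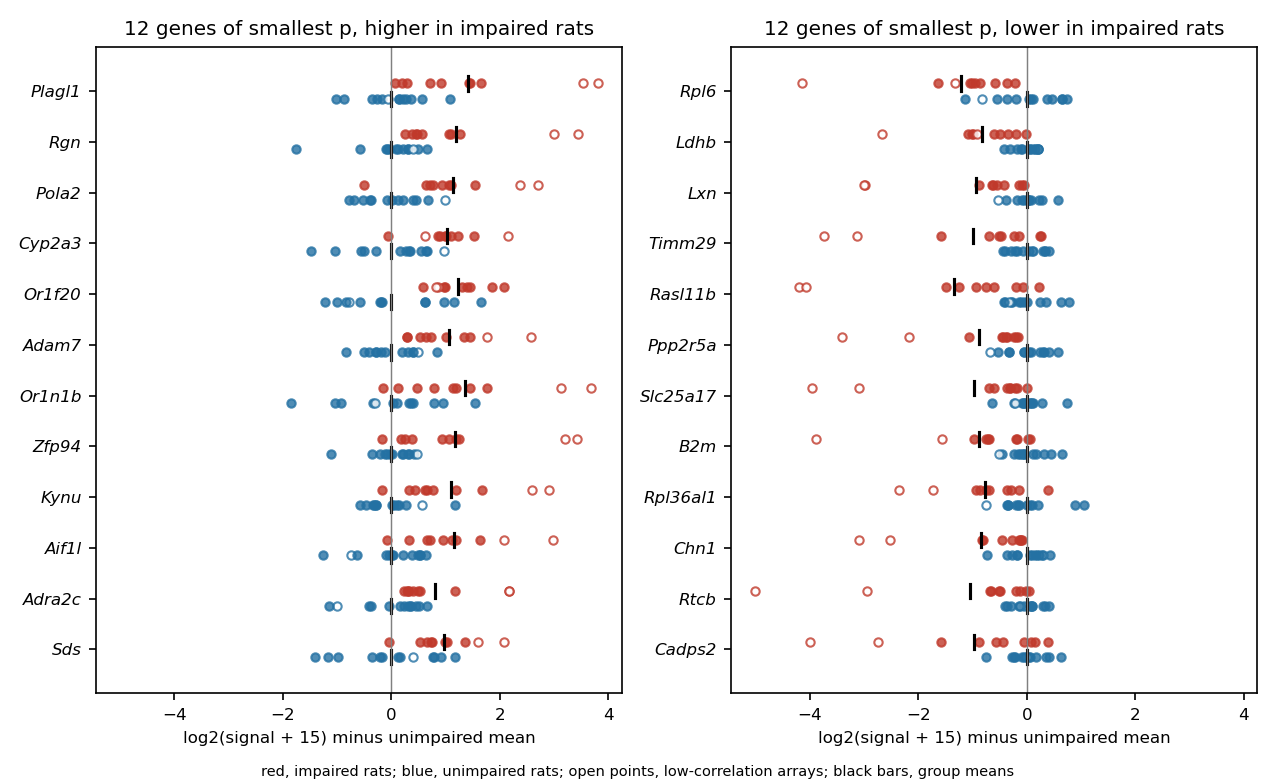
Log2(signal + 15) of each rat minus the unimpaired mean for the 12 genes of smallest unadjusted p that lay higher (left) and lower (right) in impaired rats. Red is impaired, blue is unimpaired, open points are low-correlation arrays and black bars are group means; rats 8 and 83 are the far red points in most rows, and the filled red points overlap the blue ones in every row.

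The 12 genes of smallest p that lay lower in impaired rats were strongly expressed, with mean signals from 720.2 to 10158. Ldhb, the lactate dehydrogenase subunit that favours conversion of lactate to pyruvate, was among these. Its signal ran from 1073 to 6845 with a median of 4115 in impaired rats and from 5208 to 8055 with a median of 7189 in unimpaired rats. Each of the 10 impaired rats was under the mean of the unimpaired rats, and 7 were under the lowest unimpaired rat. The difference was -0.83 ± 0.24 with all arrays and -0.57 ± 0.14 without the low-correlation arrays, where limma's adjusted p was 0.166. A second probe set of Ldhb differed by -1.07.

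Rpl6, a protein of the large ribosomal subunit, ran from 222 to 3583 with a median of 2106 in impaired and from 1878 to 6943 with a median of 4402 in unimpaired rats. Rat 83 was far below the others, and 3 of 10 impaired rats lay below all unimpaired rats. The difference was -1.22 ± 0.34 (-0.91 ± 0.26 without the low-correlation arrays) and another probe set gave -0.85. Ribosomal protein genes have many processed pseudogenes, so that a probe set can also read a related transcript. Rpl36al1, named as a ribosomal protein relative, differed by -0.78 ± 0.25 and -0.52 ± 0.20.

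Lxn encodes latexin, an inhibitor of carboxypeptidases, and its signal ran from 119.7 to 1031 with a median of 706 in impaired and from 735 to 1594 with a median of 1073 in unimpaired rats. Among impaired rats 6 of 10 lay below every unimpaired rat, with a difference of -0.94 ± 0.27 (-0.47 ± 0.18 without the low-correlation arrays). Ppp2r5a, a regulatory subunit of protein phosphatase 2A, differed by -0.89 ± 0.27 and -0.47 ± 0.18. Rasl11b, a small GTPase of the Ras family, had the largest difference of the 12, -1.34 ± 0.41, which was -0.66 ± 0.21 without the low-correlation arrays. B2m, the light chain of MHC class I, ran from 189 to 3137 with a median of 1841 in impaired and from 2104 to 4739 with a median of 2894 in unimpaired rats, a difference of -0.89 ± 0.28 and -0.47 ± 0.15.

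Chn1, a chimaerin that acts on Rac in neurons, differed by -0.85 ± 0.27 (-0.33 ± 0.14 without the low-correlation arrays), the peroxisomal carrier Slc25a17 by -0.97 ± 0.30 (-0.35 ± 0.14) and the mitochondrial import gene Timm29 by -1.0 ± 0.30 (-0.39 ± 0.18). Rtcb, the ligase of tRNA splicing, and Cadps2, which primes dense-core vesicles, differed by -1.06 ± 0.34 and -0.97 ± 0.31. Those 2 were at -0.34 ± 0.18 and -0.37 ± 0.20 without the low-correlation arrays and lost an unadjusted p under 0.05, while the other 10 kept one. Among animals 41 to 56, 4 of the 12 had one, beside 68 of all 3233 genes in the lower direction. All 24 genes kept their direction under every alternative that still tested them, among animals 41 to 56 included. A filter leaving out 60% of probe sets tested 15 of the 24. The 24 were picked by small p in these same arrays, which the alternatives reuse, so kept directions and p-values are no independent support. For 6 of the 24 genes another probe set was tested, and 5 of these 6 lay in the same direction.

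Without the low-correlation arrays, the 5 genes of smallest p that lay higher were Cyp2a3, Myc, Igf1r, Pf4 and Pola2. Myc, a transcription factor of growth that also responds early to stimulation, had signals from 103 to 338 with a median of 219 in the 8 impaired and from 78.2 to 239.9 with a median of 110.0 in the 12 unimpaired rats left. The groups overlapped, with a difference of 0.84 ± 0.21 (1.02 ± 0.34 with all arrays). Igf1r, the receptor of insulin-like growth factor 1, ran from 273 to 820.1 with a median of 503 against from 58.7 to 439 with a median of 298, a difference of 0.93 ± 0.24 (0.78 ± 0.26 with all arrays), and all 10 impaired rats lay above the unimpaired mean. A second probe set of Igf1r differed by -0.01, so the 2 probe sets did not show the same thing. Pf4, a chemokine of platelets, differed by 0.78 ± 0.20 (1.03 ± 0.34 with all arrays).

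The 5 genes of smallest p that lay lower were Ldhb, Psmd2, LOC102547700, Rpl6 and Rack1. Psmd2, a non-ATPase subunit of the proteasome cap, had signals from 695 to 2269 with a median of 1612 in the 8 impaired and from 1732 to 3383 with a median of 2248 in the 12 unimpaired rats. The difference was -0.75 ± 0.20 (-1.06 ± 0.37 with all arrays), and each of these 8 was under the mean of the 12. Rack1, a scaffold protein on the small ribosomal subunit that also binds protein kinase C, differed by -0.42 ± 0.13 (-0.79 ± 0.33). LOC102547700, a locus without a gene name, differed by -0.90 ± 0.25 (-0.60 ± 0.31 with all arrays).

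Genes with an established part in synaptic plasticity and memory lay about equally on both sides, and 22 of the 30 listed were measured. With all arrays 11 lay higher and 11 lower in impaired rats, and 1 in each direction had an unadjusted p under 0.05 (6.65% of all genes higher and 6.37% lower). With those arrays left out 13 lay higher and 9 lower, with 2 higher and 0 lower at an unadjusted p under 0.05 (9.34% and 4.27% of all genes), so the share of 2 in 22 is near that of all genes. The medians were 0.01 and 0.06, against 0.00 and 0.05 over all genes. Quantile normalization and median centring turned the first to -0.20 and -0.32, which is -0.01 and 0.01 relative to all genes. Camk2a, Camk4, Prkca, Grm5 and Syt1 did not pass the filter or had only probe sets shared with other genes.

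Syn1 and Fos were the 2 memory genes with the smallest p without the low-correlation arrays. Syn1, the synaptic vesicle protein synapsin I, ran from 477 to 900.1 with a median of 626 in impaired and from 217 to 956 with a median of 492 in unimpaired rats. All 10 impaired rats lay above the unimpaired mean but none lay above every unimpaired rat, and the difference was 0.48 ± 0.22 (0.61 ± 0.18 without the low-correlation arrays, 0.13 among animals 41 to 56). Fos, an immediate early transcription factor, ran from 177 to 1498 with a median of 844 in impaired and from 342 to 1392 with a median of 719 in unimpaired rats. Its difference was 0.14 ± 0.29 with all arrays and 0.54 ± 0.17 without the low-correlation arrays, and rat 8 held the lowest value. In neither fit did limma call Syn1 or Fos, whose adjusted p without the low-correlation arrays was 0.204 and 0.216.

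Bdnf, the neurotrophin most closely tied to hippocampal plasticity, ran from 186 to 1167 with a median of 364 in impaired and from 109 to 719 with a median of 205 in unimpaired rats, with rat 8 far above the rest. The difference was 0.56 ± 0.29 and 0.39 ± 0.27 in the 2 fits. Its 3 other probe sets differed by -0.07, 0.64 and 0.21 with all arrays and by -0.14, 0.08 and -0.12 without the low-correlation arrays. Its receptor Ntrk2 lay the other way, from 270.1 to 1749.5 with a median of 896 in impaired and from 779 to 1835 with a median of 1417 in unimpaired rats, a difference of -0.65 ± 0.30 (-0.37 ± 0.21 without the low-correlation arrays). Among animals 41 to 56 the differences were 0.62 for Bdnf and -0.53 for Ntrk2. The groups overlapped for both genes.

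For the other 20 memory genes the 95% interval without the low-correlation arrays included 0. Gria1, the AMPA receptor subunit GluA1, had signals from 205 to 7897 with a median of 6974 in impaired and from 2235 to 10458 with a median of 7213 in unimpaired rats. Its difference of -0.56 ± 0.58 with all arrays was -0.07 ± 0.31 without the low-correlation arrays (95% interval -0.71 to 0.57). Gria2, the subunit that limits calcium entry, was at -0.01 ± 0.21 (-0.44 to 0.42; all arrays, -0.34), the NMDA receptor subunits Grin2a and Grin2b at 0.30 ± 0.21 (-0.13 to 0.73; all arrays, 0.18) and 0.11 ± 0.13 (-0.15 to 0.37; all arrays, 0.20), and the obligatory subunit Grin1 at -0.23 ± 0.26 (-0.75 to 0.30; all arrays, 0.11). Other probe sets lay apart from these values: without the low-correlation arrays one of Grin2a was at 0.64 (0.84 with all arrays) and one of Grin1 at 0.32 (0.45). An interval that includes 0 does not show that the groups were alike. After quantile normalization or median centring the values of Grin1, Grin2a, Creb1, Fos and Plat with all arrays turned negative, and those of Grin2b and Dlg4 did so after median centring.

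Downstream of the receptors, Camk2b, a subunit of calcium and calmodulin dependent kinase II, was at -0.03 ± 0.25 without the low-correlation arrays (-0.36 with all arrays). Ppp3ca, the catalytic subunit of calcineurin, ran from 1652 to 7889.7 with a median of 5113 in impaired and from 4363 to 15006 with a median of 8274 in unimpaired rats, and each impaired rat was under the mean of the unimpaired rats. Its difference was -0.67 ± 0.35 with all arrays and -0.44 ± 0.29 without the low-correlation arrays (95% interval -1.03 to 0.15). Nrgn, neurogranin, which buffers calmodulin in spines, was at -0.62 ± 0.36 and -0.12 ± 0.21 in the 2 fits. The scaffold genes Dlg4 (PSD-95) and Homer1 were at 0.30 ± 0.21 (all arrays, 0.30) and 0.00 ± 0.19 (all arrays, -0.49) without the low-correlation arrays, and the kinase A subunit Prkacb at -0.01 ± 0.20 (all arrays, -0.25).

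Homer1 had 5 other probe sets from -0.54 to 1.35 with all arrays and from -0.48 to 0.94 without the low-correlation arrays, so they did not show 1 direction. Creb1, the transcription factor of the cyclic AMP response, had a difference of 0.04 ± 0.30 (all arrays, 0.26) without the low-correlation arrays, Nos1, neuronal nitric oxide synthase, 0.42 ± 0.22 (all arrays, 0.52), and Ncam1, a neural adhesion molecule, 0.49 ± 0.27 (all arrays, 0.35). Gap43, a growth cone protein, was at 0.25 ± 0.19 (all arrays, -0.02) and Plat, tissue plasminogen activator, at -0.15 ± 0.29 (all arrays, 0.05). Egr1 and Arc, whose RNA marks recent activity, had differences of -0.36 and -0.37 with all arrays. These were 0.13 ± 0.20 and 0.07 ± 0.17 without the low-correlation arrays, so the sign turned for both, and other probe sets of Egr1 ran from -0.49 to 0.58 with all arrays; for Egr1 and Homer1 the mean over all their probe sets also had the opposite sign with all arrays.

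**Figure D4:**
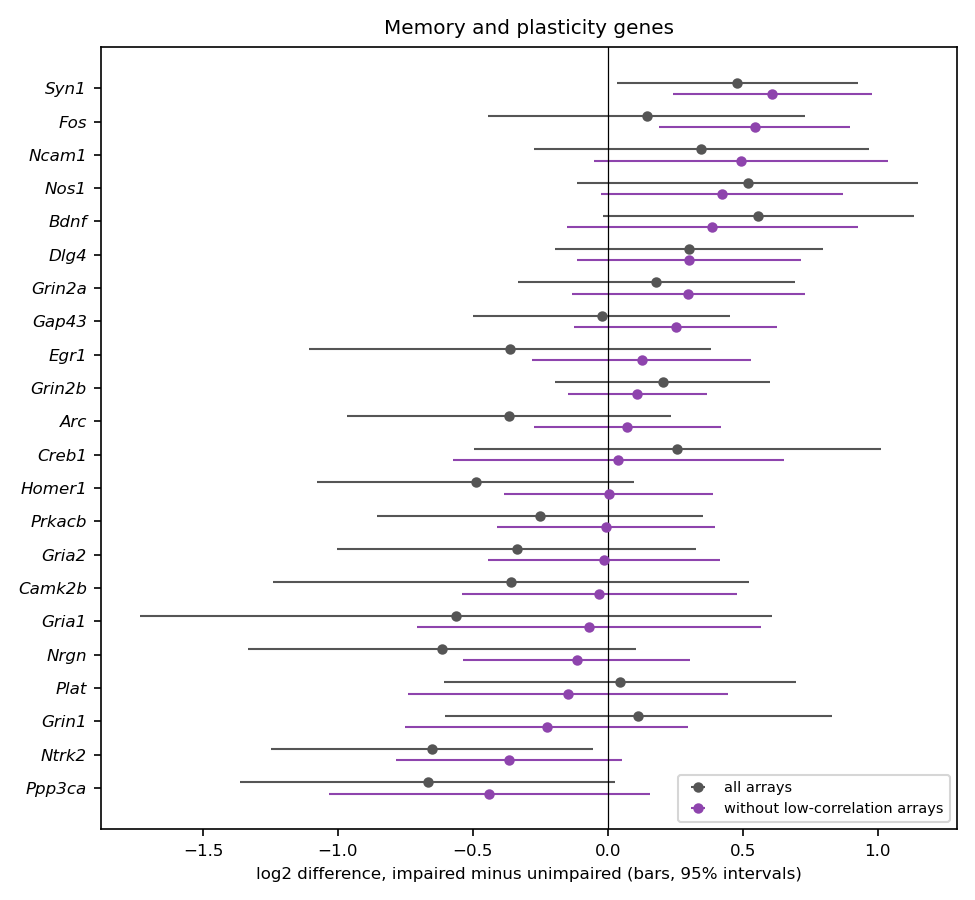
Impaired minus unimpaired log2 difference of the 22 measured memory and plasticity genes, with 95% intervals (bars), for all arrays (grey) and without the low-correlation arrays (purple). Without those arrays the intervals of Syn1 and Fos lie above 0 and the other 20 include 0; none passed after adjustment.

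Among 25 measured immediate early genes, which were read 1 day after the last trial, 14 lay higher and 11 lower with all arrays. Without the low-correlation arrays 18 lay higher (57.7% of all genes did) and 7 lower. Those with an unadjusted p under 0.05 there were 4 higher and 2 lower, beside 9.34% and 4.27% of all genes. Ptgs2, the inducible cyclooxygenase, had signals from 135 to 546 with a median of 198 in impaired and from 48.8 to 332 with a median of 137 in unimpaired rats, and all 10 impaired rats lay above the unimpaired mean. Its difference was 0.81 ± 0.31 (0.77 ± 0.29 without the low-correlation arrays and 1.0 among animals 41 to 56), but another probe set gave -0.02. Nr4a1, an activity-induced nuclear receptor, lay lower at -0.71 ± 0.26 (-0.51 ± 0.21), with -0.01 by another probe set. Sgk1, a kinase induced by corticosteroids, was at -0.64 ± 0.27 (-0.37 ± 0.22). The list thus held members on both sides.

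Glutamate receptor genes lay on both sides. Of 7 AMPA, kainate and delta receptor genes 3 lay higher and 4 lower, none with an unadjusted p under 0.05 in either fit, and the median was -0.18 (-0.01 without the low-correlation arrays). Of 7 NMDA receptor genes 5 lay higher with all arrays and 6 without the low-correlation arrays, with medians of 0.18 and 0.22 and again none at an unadjusted p under 0.05. Among metabotropic genes 5 of 5 lay higher without the low-correlation arrays (median 0.27). Relative to all genes the NMDA and metabotropic medians were above 0 with the deposited scaling, and at 0.30 and 0.36 after quantile normalization. Grm7, a presynaptic inhibitory receptor, was the one with an unadjusted p under 0.05 there, at 0.58 ± 0.24 (0.71 ± 0.38 with all arrays), and rat 83 held its highest value.

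GABA receptor subunits lay on both sides. Gabrb2, a common beta subunit of the GABA-A receptor, ran from 294 to 4789 with a median of 2934 in impaired and from 2556 to 6355 with a median of 4188 in unimpaired rats, a difference of -0.83 ± 0.28 (-0.36 ± 0.17 without the low-correlation arrays). Alpha subunits of weak signal lay higher: Gabra2 at 0.78 ± 0.32 (0.51 ± 0.22), Gabra3 at 0.73 ± 0.32 (0.72 ± 0.31) and Gabra6 at 0.76 ± 0.37 (0.71 ± 0.28). Gabra6 is known from cerebellar granule cells, and its signal here was 287 and 165 as group medians. Over the 11 measured GABA and glycine receptor genes the median was 0.36 (0.36), but it turned to -0.05 after quantile normalization, which is 0.14 relative to all genes.

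Receptors for noradrenaline, serotonin, dopamine and acetylcholine, through which the ascending modulatory systems act on CA1, lay mostly higher in impaired rats. Of 29 measured genes 25 lay higher with all arrays (50.2% of all genes did) and 27 without the low-correlation arrays (57.7% of all genes). An unadjusted p under 0.05 in the higher direction was found for 9 of 29 with all arrays (6.65% of all genes) and for 11 without the low-correlation arrays (9.34%). Many of these receptors were weak, and among the weakest 25% of genes 129 and 128 of 809 had one in the 2 fits. None of the 29 had one in the lower direction, and none passed after adjustment over all genes. The median difference was 0.53, 0.40 without the low-correlation arrays and 0.17 among animals 41 to 56. In that range 24 of 29 lay higher and 1 had an unadjusted p under 0.05. Of all 3233 genes 1669 lay higher there, 61 of them with such a p. The earlier results of these data already showed this list higher, so these values are not independent of that choice.

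Chrna2, a nicotinic acetylcholine receptor subunit, ran from 48 to 789 with a median of 161 in impaired and from 23.4 to 349 with a median of 56.4 in unimpaired rats. Its difference was 1.19 ± 0.39 (1.01 ± 0.32 without the low-correlation arrays, 0.38 among animals 41 to 56). Htr7, a serotonin receptor coupled to cyclic AMP, ran from 81.5 to 831 with a median of 144 against from 26.1 to 269 with a median of 79.9, with all 10 impaired rats above the unimpaired mean and a difference of 0.98 ± 0.34 (0.60 ± 0.26). Adra1b, an alpha 1 adrenergic receptor, was at 0.75 ± 0.28 (0.66 ± 0.26) and Htr3a, the serotonin-gated channel of some interneurons, at 0.47 ± 0.24 (0.43 ± 0.20). Mean signals of Chrna2, Htr7 and Adra1b, 158, 117 and 127, were among the weakest 25% of genes, whose median difference was 0.40 (0.21 without the low-correlation arrays). The weakest gene tested had a mean of 116.9, so Htr7 lay at the limit of the filter. Its highest value, 831, came from rat 8, a low-correlation array that the filter's mean included. The mean log2 signal over the 29 genes ran from 7.57 to 9.21 in impaired and from 7.12 to 8.59 in unimpaired rats, so the groups overlapped. Relative to all genes the list median was 0.53 with the deposited scaling and 0.51 after quantile normalization.

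Presynaptic and postsynaptic genes leaned slightly higher without the low-correlation arrays. Of 26 synaptic vesicle and fusion genes 13 lay higher with all arrays and 21 without those arrays (50.2% and 57.7% of all genes). The medians were 0.06 and 0.25, with 0.04 among animals 41 to 56. Relative to all genes these medians were 0.05 and 0.20, and the postsynaptic ones 0.21 and 0.22. Beside Syn1, the endosomal fusion protein Stx7 was at 0.41 ± 0.19 (all arrays, 0.62) and the vesicle GTPase Rab3d at 0.39 ± 0.27 (all arrays, 0.76). Slc32a1, which loads GABA into vesicles, lay lower at -0.60 ± 0.27 (-0.29 ± 0.23), with 0.39 (0.24) by another probe set. Of 19 postsynaptic scaffold genes 15 lay higher without the low-correlation arrays (median 0.27), among them the scaffold genes Dlg2 at 0.55 ± 0.20 (all arrays, 0.76), Dlgap1 at 0.51 ± 0.24 (all arrays, 0.55) and Homer3 at 0.46 ± 0.24 (all arrays, 0.93), whereas the adhesion gene Nrxn2 was at -0.10 ± 0.20 (all arrays, -0.57).

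Voltage-gated channels and calcium handling genes went both ways. Scn8a, a sodium channel of the axon initial segment, lay higher at 0.72 ± 0.26 (0.67 ± 0.22 without the low-correlation arrays), with all 10 impaired rats above the unimpaired mean. Scn2a and Scn3a lay lower at -0.71 ± 0.31 (-0.32 ± 0.25) and -0.50 ± 0.22 (-0.19 ± 0.18), and the potassium channel Kcnd3 higher at 0.88 ± 0.39 (0.74 ± 0.36). Of 29 calcium genes 5 lay lower and 0 higher at an unadjusted p under 0.05 with all arrays (6.37% and 6.65% of all genes). Without the low-correlation arrays 3 lay lower and 0 higher at such a p (4.27% and 9.34% of all genes). Among the 808 strongest genes 140 lay lower and 1 higher at such a p with all arrays, and 62 and 21 without the low-correlation arrays. The 5 lower ones with all arrays included Hpca, described with the CA1 markers. Atp2a2, the calcium pump of the endoplasmic reticulum, was at -0.89 ± 0.32 (-0.29 ± 0.14). Itpr1, the inositol trisphosphate receptor, was at -0.92 ± 0.38 (-0.28 ± 0.16). The sodium-calcium exchanger Slc8a1 was at -0.71 ± 0.27 (-0.49 ± 0.25) and the channel subunit Cacnb2 at -0.63 ± 0.28 (-0.12 ± 0.17). Other probe sets of Slc8a1 differed by 0.64 and 0.68, and those of Atp2a2 ranged from -0.58 to 0.61.

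Of 35 kinases and phosphatases of plasticity 25 lay lower with all arrays and 20 without the low-correlation arrays (49.8% and 42.3% of all genes). The medians were -0.20 and -0.03. Ppp1r1a, an inhibitor of protein phosphatase 1, ran from 573 to 3074 with a median of 1183 in impaired and from 1369.5 to 2995 with a median of 2463 in unimpaired rats; 6 impaired rats lay below and 1 above every unimpaired rat, with a difference of -0.64 ± 0.25 (-0.46 ± 0.22). Ppp1cc, a catalytic subunit of that phosphatase, was at -0.64 ± 0.30 (-0.23 ± 0.16) and the adenylyl cyclase Adcy2 at -0.49 ± 0.24 (-0.21 ± 0.12).

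Growth factors and their receptors lay higher in 33 of 39 measured genes in both fits, against 50.2% and 57.7% of all genes. Those with an unadjusted p under 0.05 in the higher direction were 4 with all arrays and 5 without the low-correlation arrays, beside 6.65% and 9.34% of all genes. Of the 809 weakest genes 129 and 128 had one. The median was 0.37, 0.35 without the low-correlation arrays and 0.07 among animals 41 to 56. Relative to all genes it was 0.37 with the deposited scaling and 0.25 after quantile normalization. Igf1r led the list, though its other probe set was at -0.01 (-0.05). Igfbp2, a binding protein of the insulin-like growth factors that the choroid plexus also makes, was at 0.81 ± 0.31 (0.56 ± 0.24). Ntf4, a ligand of Ntrk2, was at 1.08 ± 0.49, which was 0.48 ± 0.37 without the low-correlation arrays and -0.33 among animals 41 to 56.

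Genes of the ribosome lay mostly lower in 2 of the 3 views. Of 36 measured ribosomal protein genes 32 lay lower with all arrays, 29 without the low-correlation arrays and 16 among animals 41 to 56. The medians were -0.48, -0.19 and 0.01 in that order. An unadjusted p under 0.05 in the lower direction was found for 6 and 7 of 36 in the first 2 fits (6.37% and 4.27% of all genes). Rpl3 ran from 1823 to 20920.4 with a median of 11720.3 in impaired and from 12416 to 29619.9 with a median of 19282 in unimpaired rats, a difference of -0.94 ± 0.33 (-0.49 ± 0.18), and 5 impaired rats lay below every unimpaired rat. Rps3a was at -1.05 ± 0.39 (-0.56 ± 0.19), and each of the 10 impaired rats was under the mean of the unimpaired rats, and Rpl22 at -0.98 ± 0.35 (-0.38 ± 0.20).

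Over the 36 ribosomal genes the mean log2 signal per rat ran from 9.17 to 12.10 in impaired and 11.19 to 11.94 in unimpaired rats, and without the low-correlation arrays from 11.09 to 12.10 and 11.19 to 11.94. The lowest value with all arrays thus came from a low-correlation array, and the groups overlapped. Relative to all genes the list median was -0.48 with the deposited scaling, -0.18 after quantile normalization and -0.14 after quantile normalization without the low-correlation arrays.

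Mitochondrial energy genes lay mostly lower with all arrays, and mostly higher among animals 41 to 56. Of 30 oxidative phosphorylation genes 27, 20 and 10 lay lower with all arrays, without the low-correlation arrays and among animals 41 to 56, with medians of -0.34, -0.07 and 0.15. Those with an unadjusted p under 0.05 numbered 4 with all arrays, all lower, and 0 without the low-correlation arrays (6.37% and 4.27% of all genes lower). Of the 808 strongest genes 140 and 62 were lower at such a p. The ATP synthase subunits Atp5pf and Atp5pb were at -0.85 ± 0.32 (-0.24 ± 0.18) and -0.71 ± 0.28 (-0.36 ± 0.18), the ATP synthase inhibitor Atp5if1 at -0.62 ± 0.30 (-0.29 ± 0.25, with 0.31 and -0.14 by other probe sets with all arrays) and the complex I subunit Ndufb5 at -0.73 ± 0.31 (-0.21 ± 0.18). Pdha1, the pyruvate dehydrogenase subunit that joins glycolysis to the mitochondrion, ran from 341 to 3034 with a median of 2231 in impaired and from 1747 to 4932 with a median of 3249 in unimpaired rats. Each impaired rat was under the mean of the unimpaired rats, a difference of -0.96 ± 0.32 (-0.58 ± 0.18). The glycolysis and glucose transport list as a whole had medians of -0.20 and 0.06, with the transporters Slc16a1 for lactate at 0.46 ± 0.27 (all arrays, 0.68) and Slc2a3 for glucose in neurons at 0.33 ± 0.19 (all arrays, 0.54).

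Of 26 proteasome and ubiquitin genes 24 lay lower with all arrays, 20 without the low-correlation arrays and 9 among animals 41 to 56. Of all genes 49.8% and 42.3% lay lower in the first 2 views, and 1564 of 3233 in the third. The medians were -0.42, -0.17 and 0.13. An unadjusted p under 0.05 in the lower direction was found for 3 and 4 of 26 in the first 2 fits (6.37% and 4.27% of all genes). Of the 808 strongest genes 140 and 62 had one. Psmd2 led this list. Psmc3, an ATPase of the cap, was at -0.51 ± 0.27 (-0.48 ± 0.22), the ubiquitin-conjugating enzyme Ube2b at -0.73 ± 0.34 (-0.46 ± 0.17) and the core subunit Psma4 at -0.79 ± 0.29 (-0.24 ± 0.17). Other probe sets of Ube2b differed by 0.30 and 0.01. Chaperone genes, by contrast, turned: 18 of 23 lay lower with all arrays, while 17 lay higher without the low-correlation arrays and 21 among animals 41 to 56. The medians were -0.16, 0.07 and 0.18. Hspd1, the mitochondrial chaperonin, went from -0.63 to -0.03, Hsph1 from -0.72 to -0.10 and Canx, calnexin, from -0.70 to -0.06, though another probe set of Canx was at 0.38 and 0.26.

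Lysosomal and autophagy genes lay mostly lower in all 3 views. Of 21 measured genes 17 lay lower in each of the 3 views, with medians of -0.52, -0.15 and -0.14 (49.8% of all genes lay lower with all arrays and 42.3% without the low-correlation arrays). An unadjusted p under 0.05 in the lower direction was found for 6 with all arrays, 4 without the low-correlation arrays and 0 among animals 41 to 56. Beside these stood 6.37% and 4.27% of all genes in the first 2 fits, and 68 of 3233 in the third. Of the 808 strongest genes 140 and 62 had one in the first 2 fits. Psap, the precursor of the saposins that help break down sphingolipids, ran from 198 to 24312 with a median of 15136 in impaired and from 16584 to 28475 with a median of 23142 in unimpaired rats, and 7 of 10 impaired rats lay below every unimpaired rat. Its difference was -1.08 ± 0.44 (-0.37 ± 0.16), although its other probe sets differed by -0.99 and 0.41. Lamp1, a protein of the lysosomal membrane, was at -0.92 ± 0.33 (-0.46 ± 0.18), and again each impaired rat was under the unimpaired mean. Gaa, the lysosomal alpha-glucosidase, was at -0.91 ± 0.38 (-0.25 ± 0.16) and the autophagy gene Becn1 at -0.71 ± 0.30 (-0.19 ± 0.13). Relative to all genes the list median was -0.52 with the deposited scaling and -0.41 after quantile normalization. It was -0.16 after quantile normalization without the low-correlation arrays.

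**Figure D5:**
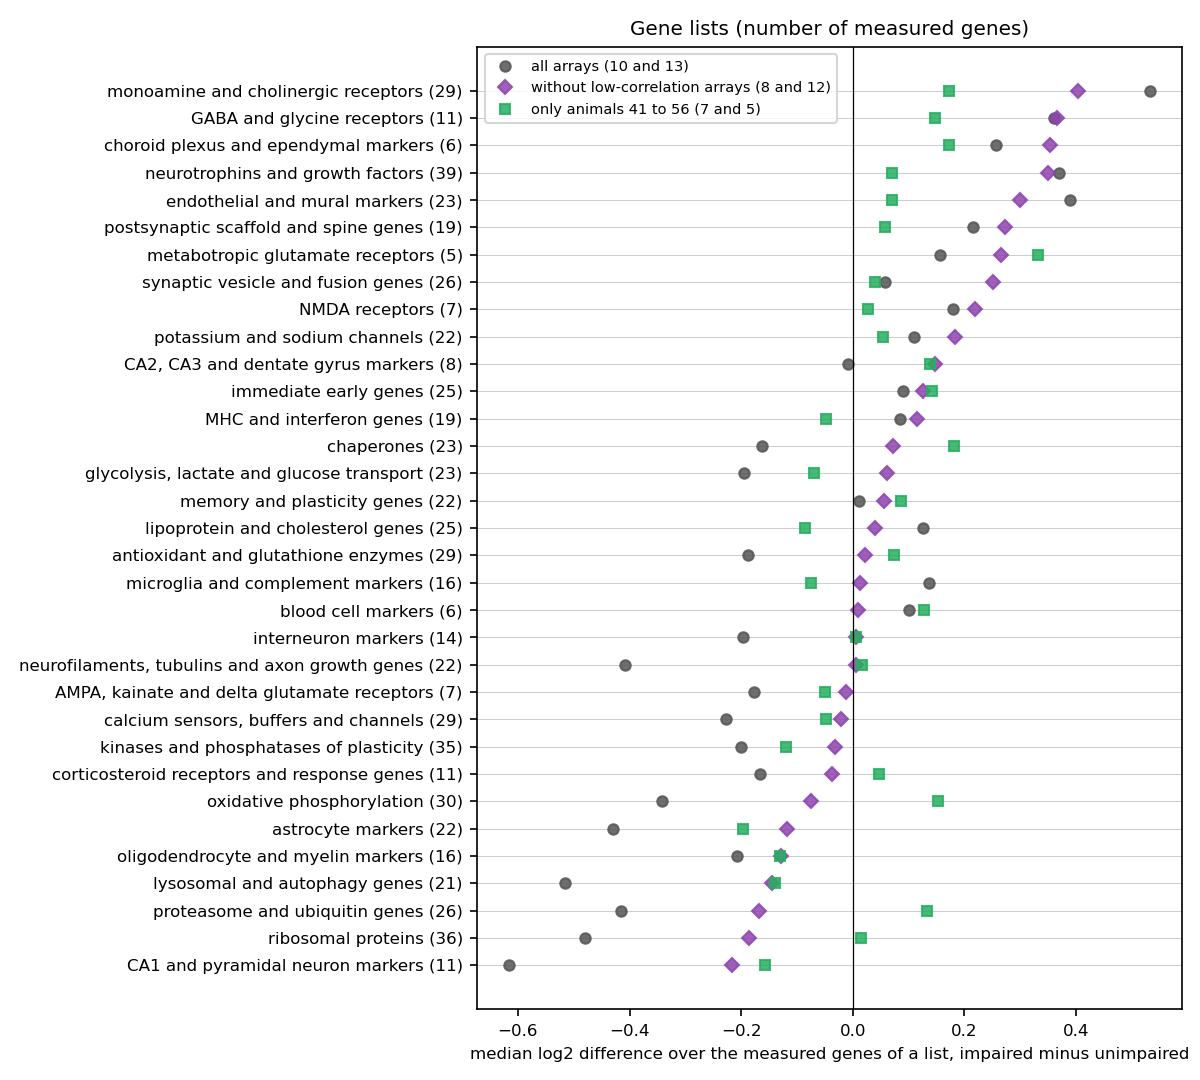
Median impaired minus unimpaired log2 difference over the measured genes of each list (number in brackets), with all arrays (grey circles), without the low-correlation arrays (purple diamonds) and among animals 41 to 56 (green squares). Monoamine and cholinergic receptors lie highest and CA1 markers lowest with all arrays, and most medians move towards 0 in the other views.

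Markers of the cells in the punch follow, and in a bulk sample fewer cells of a type and less RNA per cell cannot be told apart. As medians of impaired and unimpaired rats, the pyramidal marker Nrgn was at 15632 and 17389, Hpca, the calcium sensor hippocalcin, at 10166 and 12583, and Chn1 at 8683 and 11956. No marker measured in these lists was at 0 in any of the 23 rats. Only 46 values of the whole series were 0, and measured markers had passed the signal filter, so this does not show presence. Wfs1 and Fibcd1, which tell CA1 from other fields, had no probe set under these symbols. Of 11 CA1 and pyramidal markers 9 lay lower with all arrays, 10 without the low-correlation arrays and 8 among animals 41 to 56, with medians of -0.62, -0.22 and -0.16. Hpca was at -0.85 ± 0.40 (-0.25 ± 0.12) and the transcription factor Neurod2 at -0.62 ± 0.31 (-0.48 ± 0.28). The mean log2 signal over the 11 genes ran from 11.19 to 11.54 in the 8 impaired and from 11.29 to 11.69 in the 12 unimpaired rats without the low-correlation arrays, so the groups overlapped. Whether these markers have a part in the lower values of the ribosomal and lysosomal genes was not tested.

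Markers of neighbouring fields lay on both sides. Of 8 genes of CA2, CA3 and the dentate gyrus 4 lay higher and 4 lower with all arrays. Rgs14, a marker of CA2, was at -0.35 ± 0.20 (-0.21 ± 0.16), Nnat at 0.56 ± 0.22 (0.47 ± 0.20), Calb2 at -0.23 ± 0.29 (0.30 ± 0.19) and Lct at 0.44 ± 0.33 (0.37 ± 0.20). Interneuron markers had a median of -0.20, which was 0.01 without the low-correlation arrays. Sst, somatostatin, ran from 226 to 3553 with a median of 1502 in impaired and from 1318 to 3653 with a median of 2268 in unimpaired rats, a difference of -0.78 ± 0.27 (-0.35 ± 0.21). Pvalb, parvalbumin of fast-spiking interneurons, was at -0.52 ± 0.27 (-0.50 ± 0.18 without the low-correlation arrays and -0.50 among animals 41 to 56), close to the same value in the 3 views.

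Of 22 astrocyte markers 17 lay lower with all arrays and 15 without the low-correlation arrays (49.8% and 42.3% of all genes). The medians were -0.43 and -0.12. Ntsr2, a neurotensin receptor of astrocytes, was at -0.78 ± 0.27 (-0.40 ± 0.20), Sparcl1 at -0.89 ± 0.38 (-0.25 ± 0.13) and the glutamate transporter Slc1a3 at -0.66 ± 0.28 (-0.26 ± 0.13), while other probe sets of Slc1a3 lay higher, from 0.16 to 0.71. Kcnj10, a potassium channel of astrocytes, lay higher at 0.78 ± 0.36 (0.52 ± 0.25). Oligodendrocyte and myelin markers lay lower in 14 of 16 with all arrays and 11 without the low-correlation arrays (49.8% and 42.3% of all genes). Their medians were -0.21 and -0.13. Mbp, myelin basic protein, was at -1.05 ± 0.62 (-0.36 ± 0.40), Mobp at -0.90 ± 0.37 (-0.34 ± 0.20), Mag at 0.28 ± 0.22 (0.17 ± 0.19, with -0.24 and 0.05 by another probe set) and Pdgfra, of oligodendrocyte precursors, at -0.37 ± 0.30 (0.06 ± 0.22).

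Cytoskeletal genes lay mostly lower with all arrays only. Of 22 neurofilament, tubulin and axon growth genes 19 lay lower with all arrays, and 11 without the low-correlation arrays and 11 among animals 41 to 56. The median went from -0.41 to 0.01. Nefl, the neurofilament light chain, was at -0.70 ± 0.25 (-0.34 ± 0.17), Stmn1 at -0.73 ± 0.30 (-0.28 ± 0.20), Stmn4 at -0.41 ± 0.23 (-0.36 ± 0.18) and Tubb5 at -0.59 ± 0.32 (-0.20 ± 0.24), with 0.80 by another probe set of Tubb5.

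Vascular markers lay higher in 20 of 23 with all arrays and 21 without the low-correlation arrays (50.2% and 57.7% of all genes). The medians were 0.39, 0.30 and, among animals 41 to 56, 0.07. An unadjusted p under 0.05 in the higher direction was found for 3 and 6 of 23 (6.65% and 9.34% of all genes). Of the 809 weakest genes 129 and 128 had one. Ocln, a tight junction protein, ran from 45.4 to 337 with a median of 151 in impaired and from 17.8 to 227 with a median of 78.4 in unimpaired rats, a difference of 0.87 ± 0.42 (0.80 ± 0.32). Kcnj8, a potassium channel of pericytes, was at 0.85 ± 0.37 (0.57 ± 0.28), the pericyte receptor Pdgfrb at 0.80 ± 0.40 (0.44 ± 0.31) and the adhesion molecule Icam1 at 0.66 ± 0.33 (0.27 ± 0.30). Mean signals of these 4 genes ran from 136 to 219.9, near the weakest 25% of genes, and the list's mean log2 signal per rat ran from 7.74 to 8.98 and from 7.06 to 8.54 in impaired and unimpaired rats.

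Inflammatory genes gave no common direction. Of 16 microglia and complement markers 8 lay higher and 8 lower in both fits. With those arrays left out 2 had an unadjusted p under 0.05 in the higher and 4 in the lower direction, beside 9.34% and 4.27% of all genes. Il1b, the cytokine interleukin 1 beta, ran from 119.8 to 1237 with a median of 169 in impaired and from 44.1 to 156 with a median of 109 in unimpaired rats. All 10 impaired rats lay above the unimpaired mean, 6 lay above every unimpaired rat, and the highest, rat 8, stood far apart. The difference was 0.98 ± 0.34 (0.65 ± 0.24). Cd14, a co-receptor for bacterial lipopolysaccharide, was at 0.72 ± 0.30 (0.70 ± 0.20), with 0.27 by its other probe set with all arrays and a value close to 0 without the low-correlation arrays, while Lyz2, lysozyme of macrophages, lay lower at -0.51 ± 0.21 (-0.43 ± 0.19) and C1qb, a chain of complement C1q, at -0.57 ± 0.30 (-0.25 ± 0.19).

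Of 19 MHC and interferon genes 12 lay higher with all arrays, with medians of 0.09 and 0.11. After quantile normalization and median centring the first turned to -0.16 and -0.24. Relative to all genes it was 0.03 after quantile normalization. Against the lower B2m stood Irf1, an interferon-induced transcription factor, which ran from 486 to 1147 with a median of 761 in impaired and from 401 to 707 with a median of 585 in unimpaired rats. Its difference was 0.39 ± 0.15 (0.33 ± 0.13), with 6 impaired rats above every unimpaired rat. RT1-Ba, an MHC class II chain, was at 0.61 ± 0.27 (0.52 ± 0.22) and the antiviral gene Rsad2 at 0.81 ± 0.38 (0.55 ± 0.29).

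Redox, lipid and stress hormone genes had list medians whose sign changed between views. Among 29 antioxidant genes the medians were -0.19 and 0.02, with Mgst1 at -0.59 ± 0.24 (-0.23 ± 0.18), Sod1 at -0.61 ± 0.30 (-0.21 ± 0.16; other probe sets -0.28 and 0.06, and 0.05 and 0.26 without the low-correlation arrays), Gsta1 at -0.93 ± 0.42 (-0.43 ± 0.28) and Gstm2 at 0.65 ± 0.33 (0.37 ± 0.22); glutathione transferases of one class are similar in sequence. Among 25 lipid genes, with medians of 0.13 and 0.04 (-0.13 and -0.20 with all arrays after quantile normalization and median centring), Fdps, an enzyme of the cholesterol pathway, was at 0.87 ± 0.31 (0.72 ± 0.28) by its strongest probe set, with -0.45 and -0.21 by the others, and Apoa1 at 0.95 ± 0.41 (0.70 ± 0.29). The 11 corticosteroid genes had medians of -0.17 and -0.04. Nr3c1, the glucocorticoid receptor, was at -0.39 ± 0.22 (-0.21 ± 0.16, with 0.59 and 0.19 by another probe set), Klf9 at -0.47 ± 0.31 (-0.05 ± 0.26) and the co-chaperone Fkbp4 at 0.28 ± 0.21 (0.22 ± 0.18).

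Among transcripts of tissue next to the punch, Ttr varied greatly between animals. Ttr, transthyretin, the most abundant product of the choroid plexus, ran from 144 to 3771 with a median of 544 in impaired and from 331 to 5601 with a median of 1402 in unimpaired rats. The difference was -0.91 ± 0.53 (-1.07 ± 0.60), with 0.06 among animals 41 to 56, and the groups overlapped; another probe set gave 0.19 (-0.07). Of the 6 choroid plexus and ependymal markers 4 lay higher with all arrays, 5 without the low-correlation arrays and 6 among animals 41 to 56, with medians of 0.26, 0.35 and 0.17. The first median was -0.06 after quantile normalization and -0.07 after median centring (0.12 and 0.26 relative to all genes). Kl was at 0.60 ± 0.39 (0.31 ± 0.29) and Prlr at 0.38 ± 0.32 (0.57 ± 0.29). Of the 6 blood cell genes Slc4a1, Alas2 and Hbe1 were at -0.12 ± 0.17 (all arrays, -0.07), -0.02 ± 0.23 (all arrays, 0.08) and -0.02 ± 0.27 (all arrays, 0.26) without the low-correlation arrays, next to the 0.78 ± 0.20 of Pf4.

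The other aged groups give a frame for the leading genes, as levels without a test. For Ldhb the median signal of cage controls was 8096, of yoked rats 6469, of visible platform rats 8373 and of B rats 7319, all above the 4115 of impaired rats, and the 7189 of unimpaired rats lay within that range. Psmd2 was at 1533, 1833, 1845 and 2447 in the same order, again above the 1195 of impaired rats. Rpl6 was at 6921, 2944, 4446 and 4178, above the 2106 of impaired rats in each. For these 3 genes the impaired rats had the lowest median of the 6 aged groups with all arrays. Without rats 8 and 83 the impaired median of Psmd2 was 1612, above that of the cage controls. The medians of the other groups still held their low-correlation arrays, so these places were not compared on like arrays.

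Among the genes that lay higher, Igf1r had median signals of 256, 356, 355 and 278 in cage, yoked, visible platform and B rats, below the 488 of impaired rats. Cyp2a3 was at 196, 221, 169 and 192 in that order, below the 281 of impaired rats. Myc was at 137, 188, 116 and 142, below the 265 of impaired rats. Pf4 was at 221, 234, 168 and 137, so that cage and yoked rats were near the 248 of impaired rats. For Igf1r, Cyp2a3, Myc and Pf4 the impaired rats had the highest median of the 6 aged groups with all arrays, and the neighbouring medians were not tested against each other. Without the low-correlation arrays the impaired median of Pf4 was 212, below those of the cage and yoked rats. The cage and yoked medians still held 1 low-correlation array each.

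Young rats of 3 months after the same training, 6 arrays, had medians of 5875 for Ldhb, 2144 for Psmd2 and 3109.8 for Rpl6. For Igf1r, Cyp2a3 and Myc they were 282, 220.0 and 145. In each of these 6 genes the young median lay on the side of the unimpaired rats from the impaired median with all arrays. For Ldhb, Psmd2 and Rpl6 it lay below the unimpaired medians of 7189, 2207 and 4402. Low correlation was judged for aged arrays only, and all 6 young arrays were kept. Young rat 39 had a median correlation of 0.661 with the aged arrays, and 5th and 95th percentiles of 64.0 and 2139.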

How the data were processed

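RNA of CA1 punches was hybridised to 1-colour oligonucleotide arrays of 8799 probe sets, 1 per rat. The authors deposited linear signal intensity per probe set, which the submitters' processing notes credit to MAS5. They have a trimmed mean near 500 on each array (500.09 to 500.98, 2% trimmed at each end). The background step and version are not stated in the labels. No genome build was needed.

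From these values, 59 control probe sets were left out, 15 (the 10th percentile) was added before log2, and of the 8740 others the 40% weakest by mean signal were removed, leaving 5244. Adding 15 understates differences of weak genes. Symbols came from the platform annotation, updated through RefSeq: 7006 probe sets had 1 symbol, 308 several and 1426 none. A gene is read by its probe set of highest mean signal (3233 genes), and other probe sets are given where named.

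limma 3.58.1 in R 4.3.3 fitted 1 mean per group to the 44 aged arrays outside the B group, with eBayes trend and Benjamini-Hochberg adjustment over all 5244 probe sets; the fit was tested on simulated data. Array measures were compared with permutation tests in scipy 1.17.1. Each rat is 1 replicate. The named genes are the 12 of smallest p in each direction, the 5 in each direction without the low-correlation arrays, 4 per list by p and every memory gene measured. Members and lists were chosen with earlier results of these data known.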

Additional observations from a re-analysis of the deposited data

Results flagged for a closer look

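The low-correlation arrays of the impaired group stood apart gene by gene as well. For each of the 161 named genes and 4 array measures, the gap between the most extreme of the 10 impaired rats and the next one was divided by the range of the group, and a ratio above Dixon's 95% critical value of 0.466 was noted. This happened in 51 cases, 37 with rat 83 and 14 with rat 8 as the extreme animal, and in none with another impaired rat. A rate of about 1 in 20 holds for independent groups. These genes share the same 10 rats and were partly picked by small p, so that rate is no measure for the 51. The ratio also misses genes where both rats lie at the same end, such as Plagl1, at 1180 in rat 83 and 972 in rat 8. The 13 unimpaired rats were not examined this way, since the test is for groups of 4 to 10. The narrow signal range of these arrays moves with these values, and its part in them was not tested.

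Rat 83 held the lowest value in most of these cases. Among ribosomal and protein turnover genes the ratio was 0.637 for Rpl6, 0.635 for Rpl22, 0.655 for Rps3a, 0.767 for Rack1, 0.581 for Psmd2, 0.638 for Lamp1, 0.83 for Psap and 0.624 for Becn1. For genes of energy metabolism it was 0.602 for Ldhb, 0.663 for Atp5pf, 0.652 for Atp5pb and 0.557 for Atp5if1. For chaperones it was 0.709 for Hsph1, 0.722 for Canx and 0.746 for Hspd1. For receptors, kinases and calcium genes it was 0.534 for Gabrb2, 0.706 for Gria1, 0.652 for Gria2, 0.709 for Camk2b, 0.658 for Ppp3ca, 0.503 for Nrgn, 0.675 for Hpca, 0.56 for Itpr1 and 0.659 for Atp2a2. For the remaining genes it was 0.59 for B2m, 0.49 for Sst, 0.587 for Nr4a1, 0.702 for Egr1, 0.492 for Neurod2, 0.521 for Mobp and 0.84 for Sparcl1. Rat 83 also had the lowest log2 3' to 5' ratio of the impaired group, with a gap of 0.746 of the range. It held the highest value for 5 genes, with ratios of 0.47 for Pdgfrb, 0.603 for Stx7, 0.657 for Grm7, 0.569 for Nos1 and 0.544 for Dlg4.

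Rat 8 held the highest value for 7 genes, with ratios of 0.559 for Myc, 0.712 for Il1b, 0.546 for Htr7, 0.505 for Kcnj10, 0.539 for Bdnf, 0.608 for Grik2 and 0.664 for Grin2b. The cytokine Il1b and the neurotrophin Bdnf are among these, at 1237 and 1167 against medians of 169 and 364 in impaired rats. Its spike-in signal was the highest too, with a gap of 0.476 of the range. It held the lowest value for 6 genes, with ratios of 0.524 for Psma4, 0.505 for Mgst1, 0.519 for Tubb5, 0.555 for Gria3, 0.47 for Calb2 and 0.48 for Fos.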

How the results depend on the processing

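The count of 0 probe sets past an adjusted p of 0.05 held under every alternative except one: without the low-correlation arrays and unimpaired rat 53, limma called 3. These were Cga (1.47 ± 0.30, adjusted p = 0.0416), a probe set of Rpl26 (-2.02 ± 0.40, adjusted p = 0.0306) and 1 probe set without a gene name (1.01 ± 0.19, adjusted p = 0.0194); they are named because the count is small, after their values were seen. The smallest adjusted p over the other alternatives, single left-out arrays aside, ran from 0.0735 with array quality weights to 0.583 among animals 41 to 56.

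The count of 677 probe sets at an unadjusted p under 0.05 moved by over 1.5 times to 1563 with no filter on low signal, 402 with 60% of probe sets left out, 1370 with the animal number range as a covariate and 225 among animals 41 to 56. Without the low-correlation arrays and with no filter it was 1173. The filter settings differ by construction in how many probe sets they test; the cause of the other shifts was not tested. Leaving out 1 array gave 358 (impaired rat 83) to 947 (unimpaired rat 81), and 399 without impaired rat 8. After the low-correlation arrays were removed, leaving out 1 more gave 441 (impaired rat 50) to 872 (unimpaired rat 84). It stayed within 1.5 times, 512 to 940, under both pseudocounts, both scalings, the robust fit, array weights, the 3' to 5' covariate and the fits of 23 or 79 arrays.

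Of the 161 named genes, the difference had the opposite sign for 7 after quantile normalization, 13 after median centring, 11 with array weights, 11 without the low-correlation arrays and 26 among animals 41 to 56. The mean over all probe sets of a gene turned the sign of Slc8a1, Slc1a3, Tubb5, Nr3c1, Homer1, Egr1 and Slc4a1. No paired analysis was possible because every animal number occurs once and no number is shared between the groups. The number of arrays and the signal over background limit the precision, and the median standard error of a gene was 0.29 with all arrays. Alternatives that combine the exclusion of low-correlation arrays with another choice were added after the data were seen.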
